A study of Sus scrofa with 18 samples.

Results

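The genes described here encode the subunits, activators and assembly factors of the proteasome and the ubiquitin-conjugating enzymes. They were taken by gene symbol, as the probe sets of the array whose platform symbol starts with PSMA, PSMB, PSMC, PSMD, PSME, PSMF, PSMG or UBE2. This choice was made with earlier results of these data known. The rule found 64 genes on 86 probe sets, of 6765 named genes and 23935 probe sets in all. Where a gene had several probe sets, the one whose log2 ratio was highest on average over the arrays stood for it. Of the 64 genes, 14 encode the proteasome core, 17 its regulatory cap, 4 the immunoproteasome, 5 other activators, inhibitors and assembly chaperones, and 24 ubiquitin-conjugating enzymes of the UBE2 family. The cap group includes PSMD5 and PSMD10, which encode assembly chaperones of its base. PSMB9 is not analysed here.

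The samples were livers of male and female piglets at postnatal day 21, measured on Affymetrix porcine expression arrays. Piglets had been suckled by the sow, or had received a commercial infant formula based on cow's milk (milk formula) or on soy (soy formula) from day 2 onwards. Each combination of sex and diet held 3 RNA pools, which gave 6 groups and 18 arrays. No breed, genotype or drug treatment is given in the sources used here, and neither is the number of animals per pool. The p-values below therefore measure the spread between pools.

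Cells mark proteins for breakdown with chains of ubiquitin, which an activating enzyme passes to a conjugating enzyme of the UBE2 family and a ligase then helps to place on the substrate. The regulatory cap of the proteasome, built from a base with a ring of ATPases and a lid, binds the chain, removes it and unfolds the substrate. The core, a barrel of alpha and beta rings, cuts it into peptides. Interferon induces the immunoproteasome subunits, which take the place of the constitutive catalytic beta subunits and yield peptides for antigen presentation. In liver, the pathway controls the turnover of metabolic enzymes and of misfolded proteins.

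The values are linear expression ratios, 1 for each probe set on each array, and array medians ran from 0.301 to 0.309. They allow a gene to be compared between arrays but not 2 genes with each other. Differences are log2 differences between group means from limma, with standard errors (SE), and the words rose and fell are kept for genes whose p-value, adjusted over all 23935 probe sets, was below 0.05. The spread between pools was larger in males, with a median residual SD on the log2 scale of 0.368 over the 64 genes against 0.148 in females. All 18 hybridisation control probe sets were higher on male arrays, with a median of 8.43-fold. Of the 64 genes 60 had higher ratios in females, with a median difference of 1.0 on the log2 scale. So did 4594 of all 6765 named genes, with a median of 0.41. Sex cannot be told apart from whatever else separated the array sets, so diets were compared within each sex. The 11 measured hepatocyte markers were above 0 on every array, but the ratios carry no absolute level by which the labelled tissue could be checked.

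In females on soy formula against sow milk, 10 of the 40 proteasome genes rose and 0 fell. In that comparison 11 of the 64 genes (17.2%) rose and 0 fell, where 6.22% of all named genes rose and 4.95% fell. Of the 11, 10 were proteasome genes, 6 of the cap, 2 of the core and 2 of the activators and chaperones, and 1 was a UBE2 gene. Across the 64 genes the difference was above 0 in 52, with a median of 0.24, against 50.9% of all genes and a median of 0.01. The mean log2 ratio was over -0.5 for 84.4% of the 64 genes and for 50.1% of all genes. Among named genes over that limit, which was chosen after the data were seen, 9.40% rose. Because the ratios do not allow 2 genes to be compared with each other, the limit does not match genes by signal. In bulk liver, a change in RNA per cell and a change in the share of a cell type cannot be told apart.

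**Figure D1:**
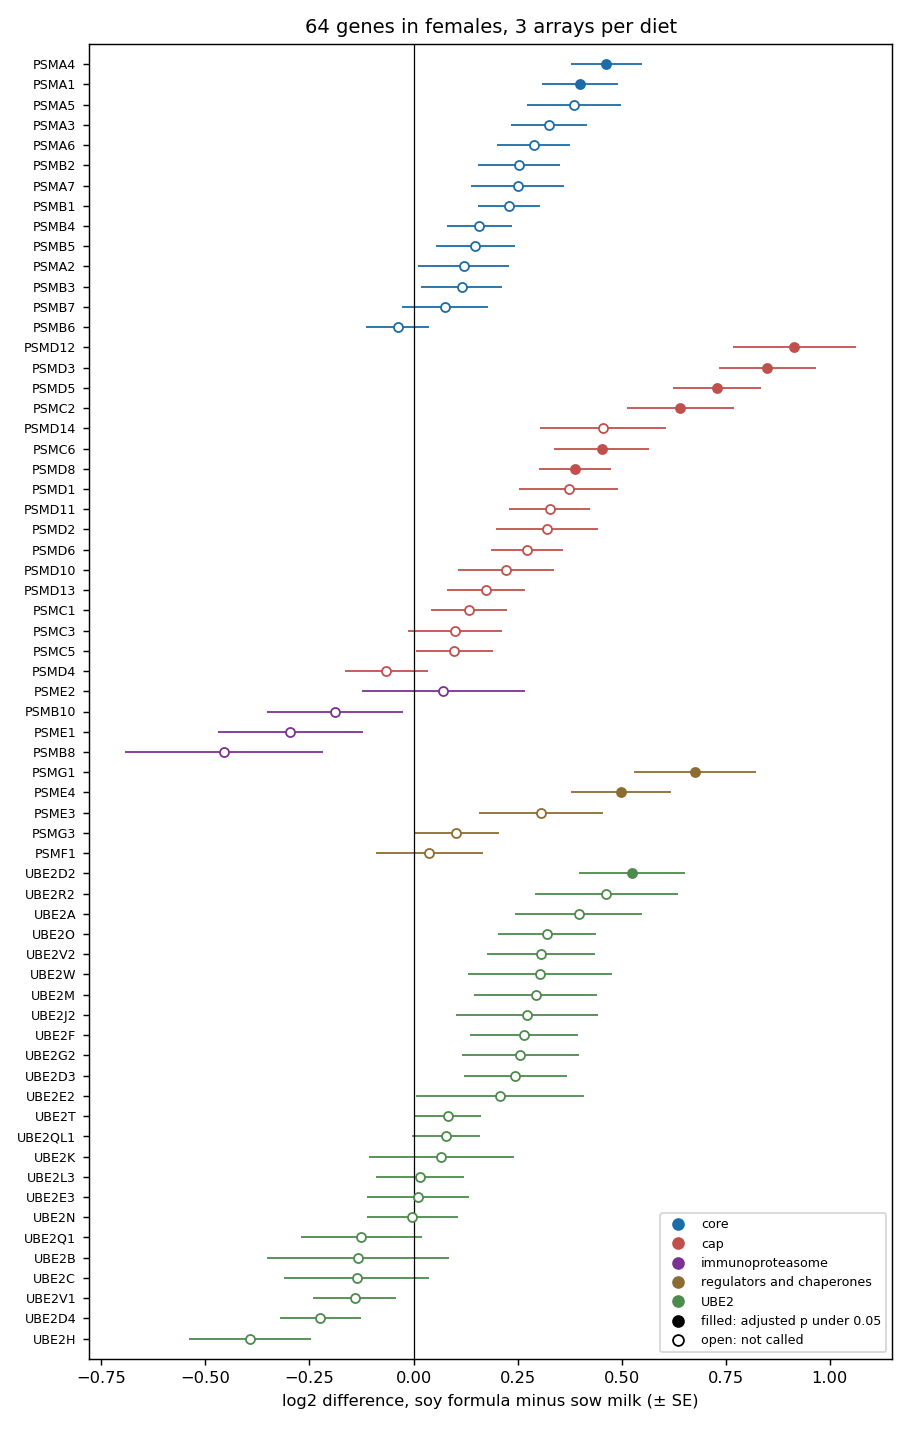
Log2 difference between soy formula and sow milk in females for each of the 64 genes, by subgroup, with points at the difference, bars of 1 SE and filled points for an adjusted p below 0.05. The 17 cap genes run from -0.07 for PSMD4 to 0.92 for PSMD12, while PSMB8 lies lowest of all, at -0.46.

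The regulatory cap held the largest differences. Of its 17 genes, which include the assembly chaperones PSMD5 and PSMD10, 6 rose in females on soy formula against sow milk. They were 2 of 8 genes of the base, 3 of 7 of the lid and PSMD5. Of the 17 genes 16 were above 0, with a median of 0.33. Among the 7 lid genes PSMD12, PSMD3 and PSMD8 rose and all 7 were above 0 (median 0.39). PSMD12, a scaffold subunit of the lid, had ratios of 0.648, 0.834 and 0.668 in the 3 pools of sow-fed females, 0.719, 0.891 and 1.06 on milk formula and 1.45, 1.23 and 1.36 on soy formula. Each soy formula pool lay above each of the other 6 female pools. The rise over sow milk was 0.92 (SE 0.15, n = 3 per group), or 1.89-fold, with a limma adjusted p of 0.00607.

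PSMD3, another scaffold subunit of the lid, was at 1.33, 1.54 and 1.33 in sow-fed females, at 1.5, 1.18 and 1.58 on milk formula and at 2.64, 2.42 and 2.51 on soy formula. The soy formula pools stood clear of both other diets, which overlapped. It rose by 0.85 (SE 0.12, limma adjusted p = 0.00283) over sow milk and by 0.84 (SE 0.12, limma adjusted p = 0.0099) over milk formula. In males its ratios were 0.395, 0.336 and 0.318 on sow milk, 0.817, 0.420 and 0.261 on milk formula and 0.640, 0.526 and 0.467 on soy formula. The male soy formula pools also lay above the 3 sow-fed pools, and the milk formula pools spanned both. The male difference between soy formula and sow milk was 0.63 (SE 0.34, limma adjusted p = 0.719).

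PSMD5, a chaperone that holds a base ATPase during assembly and is not part of the finished proteasome, was at 1.17, 1.45 and 1.32 in sow-fed females, 1.52, 1.31 and 1.49 on milk formula and 2.04, 2.10 and 2.37 on soy formula. Again the 3 soy formula pools were above all other female pools. It rose by 0.73 (SE 0.11, limma adjusted p = 0.00393) over sow milk and by 0.59 (SE 0.11, limma adjusted p = 0.0223) over milk formula. In males the ratios were 0.688, 0.829 and 0.435 on sow milk, 0.687, 0.441 and 0.517 on milk formula and 0.601, 0.403 and 0.594 on soy formula, and all 3 diets overlapped. The female minus male difference of its response to soy formula was 0.99, the largest among proteasome genes, with a limma adjusted p of 0.394.

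The base of the cap carries the ATPases that unfold substrates. All 5 measured ATPase genes were above 0 in females on soy formula against sow milk and PSMC2 and PSMC6 rose. PSMC2 was at 1.07, 1.27 and 1.24 in sow-fed females, 1.34, 1.10 and 1.53 on milk formula and 1.71, 1.83 and 2.05 on soy formula. The soy formula pools again did not overlap either other diet. Its rise was 0.64 (SE 0.13, limma adjusted p = 0.0161), and its other 2 probe sets also rose, by 0.79 and 0.46. Across both sexes the probe set used gave 0.17 (limma adjusted p = 0.847), while one of the others rose by 0.63 (limma adjusted p = 0.0361). PSMC6 rose by 0.45 in females (SE 0.11, limma adjusted p = 0.0399) and PSMD8, of the lid, by 0.39 (SE 0.09, limma adjusted p = 0.0238). The ubiquitin receptor PSMD4 was the 1 cap gene below 0, at -0.07. PSMD1, the large scaffold of the base, missed the threshold on the probe set used (0.37, limma adjusted p = 0.0968), although its other probe set passed (0.43, limma adjusted p = 0.03).

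In the core, the outer alpha rings and the inner beta rings differed in their counts. PSMA4 and PSMA1 rose among the 7 alpha genes in females on soy formula against sow milk, all 7 were above 0 and the median was 0.33. None of the 7 beta genes outside the immunoproteasome rose, 6 were above 0 and the median was 0.15. The difference between the rings was not tested. PSMA4, of the alpha ring that gates the barrel, was at 1.32, 1.45 and 1.30 in sow-fed females, 1.45, 1.34 and 1.48 on milk formula and 1.90, 1.95 and 1.76 on soy formula. Its soy formula pools were above all 6 others. It rose by 0.46 (SE 0.08, limma adjusted p = 0.0108) over sow milk and by 0.39 (SE 0.08, limma adjusted p = 0.0434) over milk formula. PSMA1 rose by 0.40 over sow milk (SE 0.09, limma adjusted p = 0.0265).

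The constitutive catalytic subunits of the core moved little in females. PSMB5, which carries the chymotrypsin-like activity, was at 1.43, 1.42 and 1.39 in sow-fed females, 1.51, 1.24 and 1.46 on milk formula and 1.62, 1.61 and 1.46 on soy formula. The soy formula pools were just above the sow-fed ones and overlapped milk formula, with a difference from sow milk of 0.15 (SE 0.09, limma adjusted p = 0.443). PSMB6, with caspase-like activity, was at 1.25, 1.31 and 1.29 on sow milk, 1.25, 1.27 and 1.27 on milk formula and 1.33, 1.20 and 1.22 on soy formula, which overlapped (difference of soy formula from sow milk -0.04, SE 0.08). PSMB7, with trypsin-like activity, was at 1.15, 1.11 and 1.23 on sow milk, 1.26, 1.14 and 1.43 on milk formula and 1.31, 1.25 and 1.13 on soy formula, which also overlapped (0.08, SE 0.10). In males PSMB5 was at 0.591, 0.308 and 0.615 on sow milk and at 0.704, 0.734 and 0.707 on soy formula. Those groups did not overlap, with a difference of 0.57 (SE 0.26, limma adjusted p = 0.64). Male PSMB6 and PSMB7 differed by 0.22 (SE 0.29) and -0.01 (SE 0.24) between these diets, and their groups overlapped.

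**Figure D2:**
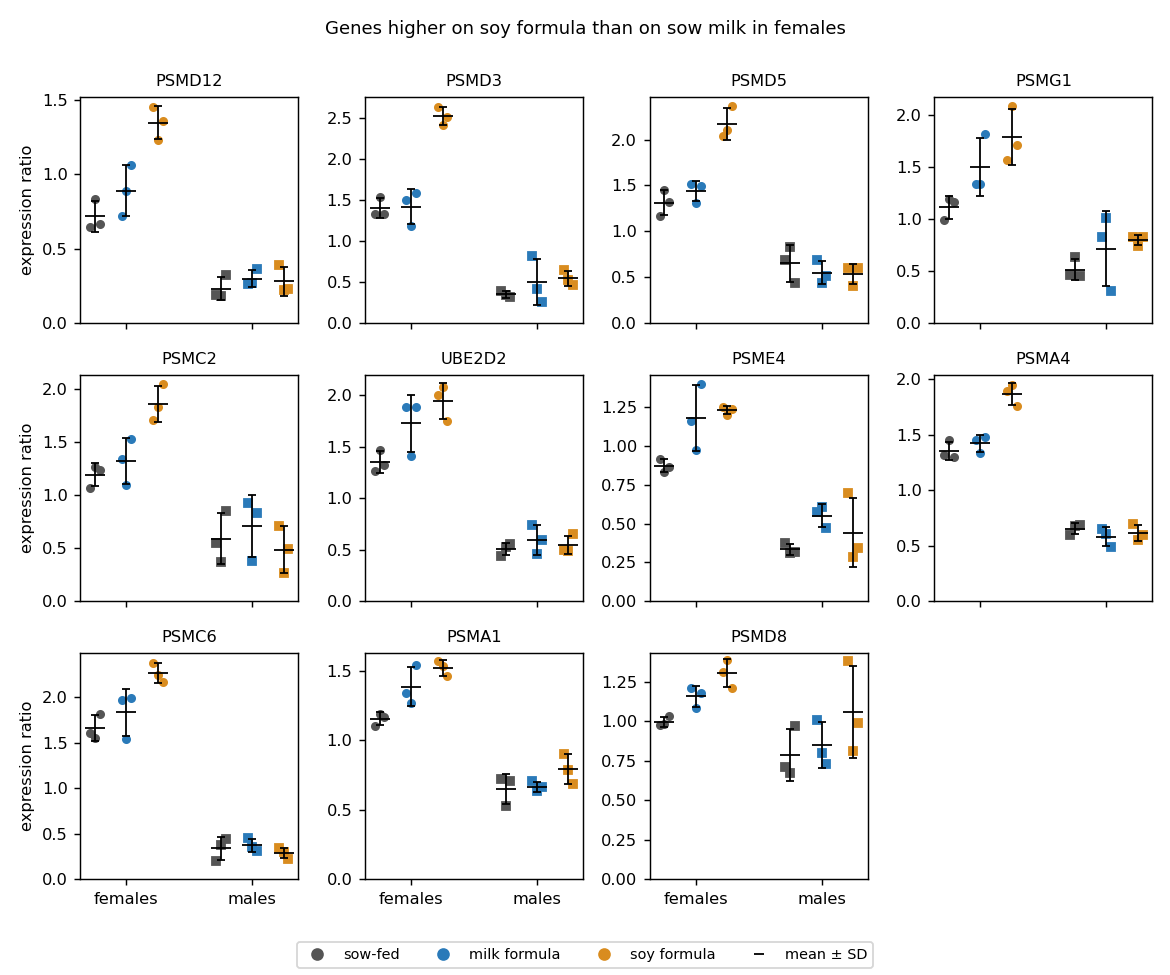
Expression ratio of the 11 genes that rose in females on soy formula over sow milk, by diet and sex, with a point per pool and the mean and SD of 3 pools. The axis of each panel starts at 0, and the female soy formula pools lie above every sow-fed female pool in each panel.

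Both an activator and an assembly chaperone were among the genes that rose in females on soy formula. PSMG1, which pairs with another chaperone to assemble the alpha ring, was at 0.990, 1.19 and 1.16 in sow-fed females, 1.34, 1.34 and 1.82 on milk formula and 1.57, 2.09 and 1.71 on soy formula. Both formulas lay above sow milk and overlapped each other. PSMG1 rose by 0.68 on soy formula over sow milk (SE 0.15, limma adjusted p = 0.0217), and the milk formula difference was 0.42 (SE 0.15, limma adjusted p = 0.291). In males it was at 0.460, 0.631 and 0.448 on sow milk, 0.829, 1.01 and 0.309 on milk formula and 0.829, 0.742 and 0.823 on soy formula. The male soy formula pools did not overlap the sow-fed pools (0.65, SE 0.36, limma adjusted p = 0.732).

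PSME4, an activator that opens the core without ATP or ubiquitin, was at 0.916, 0.834 and 0.864 in sow-fed females, 1.16, 0.974 and 1.40 on milk formula and 1.25, 1.20 and 1.24 on soy formula. Every formula pool was above every sow-fed pool. It rose by 0.50 on soy formula (SE 0.12, limma adjusted p = 0.034), with 0.42 on milk formula (SE 0.12, limma adjusted p = 0.185). Of the remaining genes of the group, the nuclear activator PSME3 was at 0.31 and the inhibitor PSMF1 at 0.04 between soy formula and sow milk in females, neither past the threshold. PSMF1 had a second probe set, at -0.33.

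No immunoproteasome gene passed the threshold of limma's test in any comparison, and an unadjusted p below 0.05 was reached by 1 of them, PSMB8, in 1 comparison (soy formula against milk formula over both sexes). In all, 3 of the 4 lay below 0 in females on soy formula against sow milk, with a median of -0.24. PSMB8, the inducible counterpart of PSMB5, was at 0.890, 0.916 and 1.57 in sow-fed females, 1.53, 0.914 and 0.940 on milk formula and 0.873, 0.751 and 0.757 on soy formula. The soy formula pools were below all the others, and 1 pool of each other group stood high. The difference of soy formula from sow milk was -0.46 (SE 0.24, limma adjusted p = 0.332). In males PSMB8 was at 0.565, 0.886 and 0.742 on sow milk, 0.838, 1.47 and 0.911 on milk formula and 0.671, 0.700 and 0.753 on soy formula. Soy formula overlapped sow milk there but lay below all milk formula pools. Over both sexes the difference of soy formula from milk formula was -0.51 (SE 0.18, limma adjusted p = 0.257).

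PSMB10, the inducible counterpart of PSMB7, was at 1.01, 0.972 and 1.39 in sow-fed females, 1.35, 1.05 and 0.992 on milk formula and 1.12, 0.905 and 0.907 on soy formula. The groups overlapped (soy formula minus sow milk -0.19, SE 0.16). PSME1 and PSME2 form the interferon-inducible activator ring. PSME1 was at 1.13, 1.05 and 1.72 in sow-fed females, 1.41, 1.26 and 1.12 on milk formula and 1.17, 0.984 and 0.960 on soy formula (soy formula minus sow milk -0.30, SE 0.17). PSME2 was at 0.942, 1.01 and 1.74, then 1.44, 1.25 and 1.32, and then 1.37, 1.22 and 1.16 in the same order of diets (0.07, SE 0.20). For both genes the soy formula pools overlapped the sow-fed pools. In males the soy formula minus sow milk differences of the 4 genes ran from -0.10 (PSME1) to 0.19 (PSME2), and of soy formula minus milk formula from -0.56 (PSMB8) to -0.04 (PSME1), with 0 called.

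Single pools bore on these values. Sow-fed female replicate 3 was the highest of its group on all 4 immunoproteasome genes and on 11 of 15 genes of antigen processing and interferon response. Its MX1 ratio, for an interferon-induced antiviral GTPase, was 4.02 against 1.06 and 0.884 in the other sow-fed female pools. Its IFIT1 ratio was 2.02 against 0.347 and 0.339. Without that pool the median of the 4 genes in females moved from -0.24 to -0.05 and PSME2 from 0.07 to 0.35. Replicate 1 of the female milk formula pools was also the highest of its group on all 4 genes, and on 9 of the 15. Replicate 1 of the female soy formula pools was so on all 4 and on 10 of the 15. Without that soy formula pool the median in females was -0.34. On soy formula the macrophage markers were also lower, with 5 of 7 measured (CD5L, VSIG4, AIF1, C1QA and C1QC) falling in females and over both sexes. In females their summed ratio lay between 10.1 and 11.7 on sow milk, between 10 and 12 on milk formula and between 5.55 and 7.3 on soy formula. In males the corresponding ranges were 5.0 to 6.71, 5.68 to 7.14 and 3.44 to 4.19. None of the markers was at 0 on any array, but every deposited ratio is above 0, so this cannot show that a cell type was present. Of 8 endothelial markers 5 fell in females on soy formula against sow milk. Their summed ratio in females was 8.69 to 9.91 on sow milk, 7.9 to 9.03 on milk formula and 5.64 to 6.62 on soy formula. Of 5 erythroid markers all were above 0 in females and 1, the globin gene HBB, rose (0.85, SE 0.14, limma adjusted p = 0.0077). Their summed ratio in females was 1.57 to 2.61 on sow milk, 3.1 to 13.1 on milk formula and 2.54 to 8.12 on soy formula. Of 11 hepatocyte markers 1 was above 0 in females and 1, the haptoglobin gene HP, fell (-0.36, SE 0.09, limma adjusted p = 0.0459). Their summed ratio in females was 14.5 to 15.6 on sow milk, 11.8 to 13.1 on milk formula and 13 to 13.8 on soy formula. The part of the interferon response, of macrophages, of endothelial and erythroid cells and of hepatocytes in the immunoproteasome values and in the rises above was not tested.

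**Figure D3:**
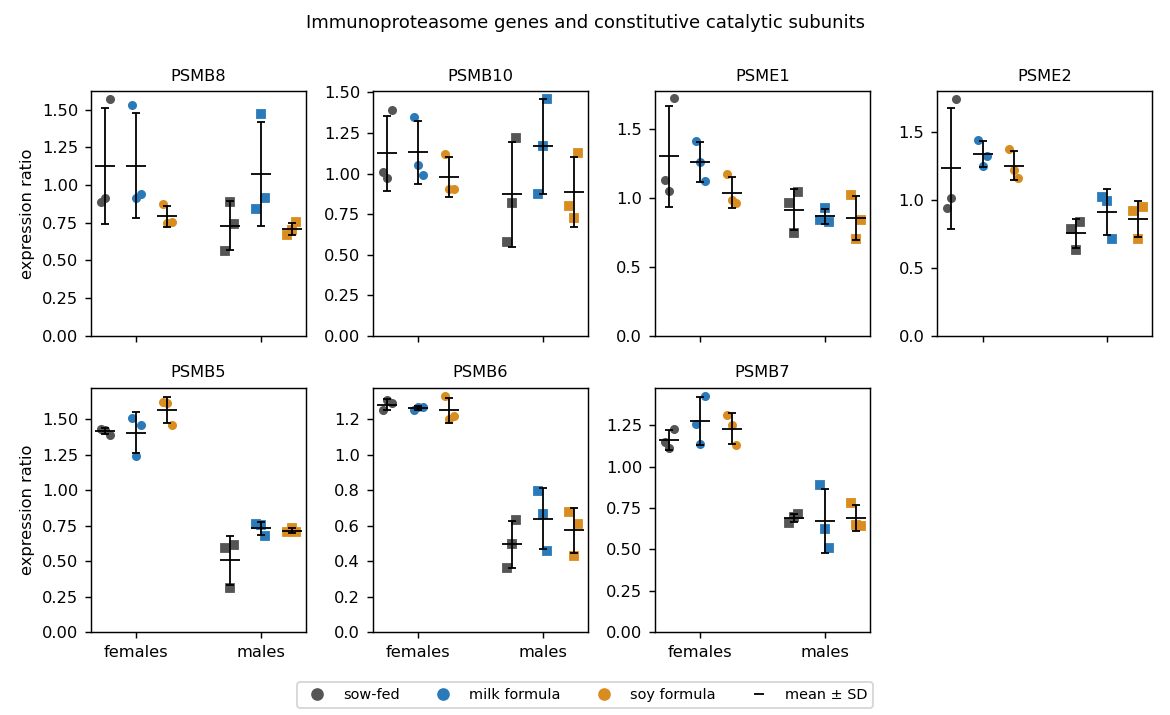
Expression ratio of the 4 immunoproteasome genes (top row) and the constitutive catalytic subunits (bottom row) by diet and sex, with a point per pool and the mean and SD of 3 pools. One sow-fed female pool, at 1.57 for PSMB8 and 1.74 for PSME2, stands above the other 2 in each panel of the top row.

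The UBE2 family showed few differences. In females on soy formula against sow milk 1 of 24 genes rose (4.17%, against 6.22% of all named genes), 17 were above 0 and the median was 0.15. UBE2D2, which works with many different ligases, was at 1.26, 1.47 and 1.32 in sow-fed females, 1.89, 1.41 and 1.89 on milk formula and 2.00, 2.08 and 1.75 on soy formula. The soy formula pools were above the sow-fed pools and overlapped milk formula. It rose by 0.53 (SE 0.13, limma adjusted p = 0.035), while its other 2 probe sets were at 0.33 and 0.28 and did not pass. By modifier, the 20 genes for ubiquitin had a median of 0.08, the 2 for the ubiquitin-like protein NEDD8 (UBE2M and UBE2F) lay at 0.29 and 0.26, and the catalytically inactive variants UBE2V1 and UBE2V2 at -0.14 and 0.31.

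UBE2H and UBE2B were the lowest of the 64 genes in some comparisons. UBE2H, the conjugating partner of the CTLH ligase complex, was at 1.87, 1.91 and 2.04 in sow-fed females, 2.48, 1.79 and 2.29 on milk formula and 1.68, 1.20 and 1.59 on soy formula. The soy formula pools were below all others, with a difference from milk formula of -0.56 in females and -0.48 over both sexes (limma adjusted p = 0.0938). Neither was called. With quantile normalization UBE2H was called lower on soy formula in females, against milk formula (-0.74, limma adjusted p = 0.0105) and against sow milk (-0.46, limma adjusted p = 0.0408). UBE2B, a conjugating enzyme of DNA damage tolerance and histone ubiquitination, was at 0.654, 0.447 and 0.748 in sow-fed males, 0.422, 0.28 and 0.3 on milk formula and 0.337, 0.296 and 0.245 on soy formula. All male formula pools were below all sow-fed pools. The soy formula difference was -1.05 in males (limma adjusted p = 0.175), -0.13 in females and -0.59 over both sexes (limma adjusted p = 0.0707). UBE2E3, singled out after its values were seen, was at -0.45 over both sexes on the probe set used (limma adjusted p = 0.221), while a second probe set fell by 0.70 (limma adjusted p = 0.00868) and the other was at -0.13.

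**Figure D4:**
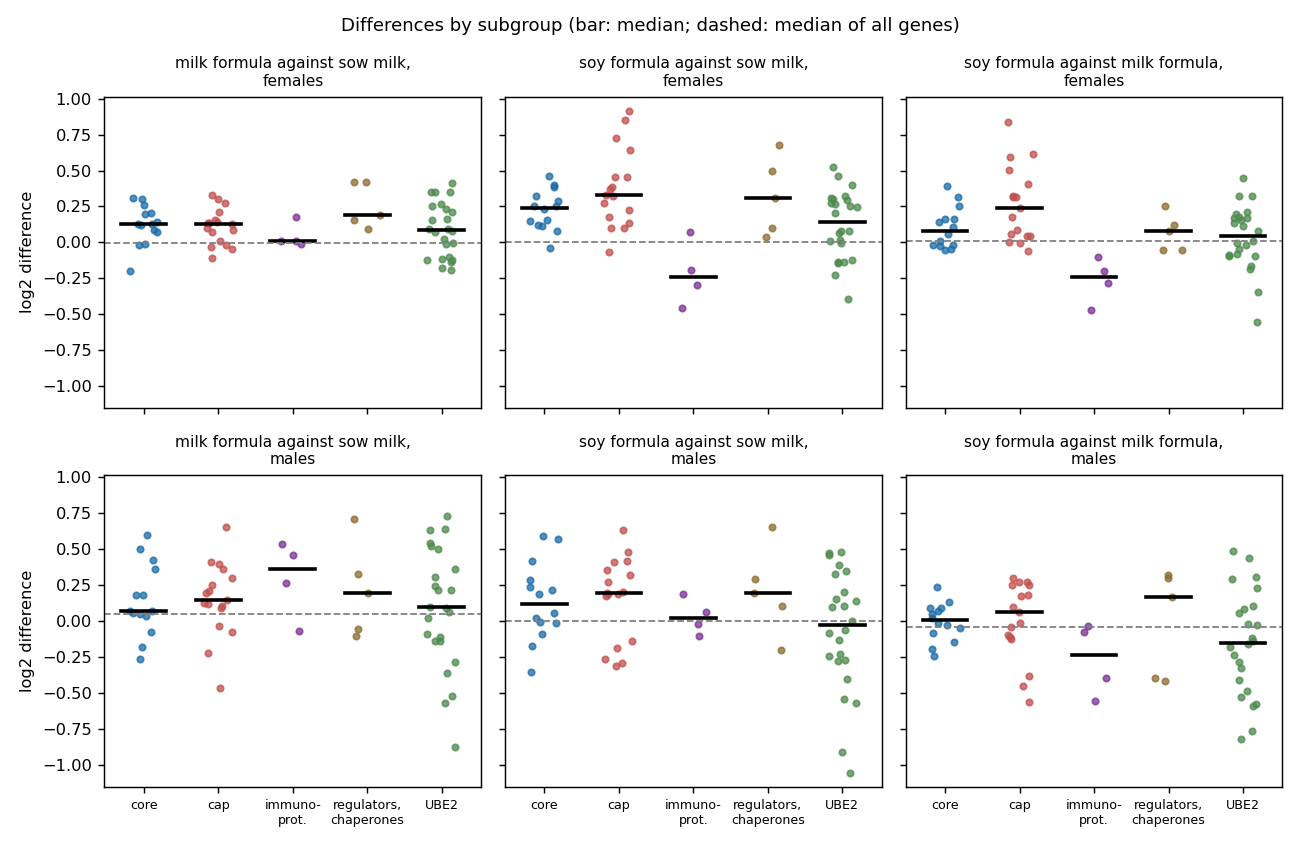
Log2 differences of the 64 genes by subgroup for the 3 diet comparisons, females above and males below, with a point per gene, a bar at the subgroup's median and a dashed line at the median of all named genes. In females on soy formula against sow milk the medians are 0.33 for the cap, 0.24 for the core, 0.15 for UBE2 and -0.24 for the immunoproteasome.

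Counting genes whose 3 soy formula pools all lay above the 3 sow-fed pools, 31 of 64 did so in females, where 17.2% of all named genes did. They were 13 of 17 cap, 9 of 14 core, 2 of 5 activator and chaperone, 7 of 24 UBE2 and 0 of 4 immunoproteasome genes. The pools of UBE2H and PSMB8, 2 of the 64 genes, were below without overlap, against 15.7% of all named genes. In males 6 of 64 were above, against 6.56% of all named genes (PSMC3, PSMC5, PSMD3, PSMB5, PSMG1 and UBE2C), and 3 were below, against 6.92% of all named genes (UBE2B, UBE2R2 and PSMA2). PSMD3, PSMG1 and PSMB5 were above without overlap in both sexes. UBE2R2 was above in females and below in males, and its difference between sexes was 1.03 (SE 0.40, limma adjusted p = 0.521).

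Milk formula gave 0 called genes among the 64 in females, in males and over both sexes, against 1.43%, 0.237% and 1.49% of all named genes called in either direction. An unadjusted limma p below 0.05 was reached by 12, 6 and 9 of the 64 respectively, and by 15.4%, 7.66% and 12.8% of all named genes. The median difference from sow milk was 0.13 in females, 0.13 in males and 0.16 over both sexes (all genes over both sexes, 0.02). The gene nearest to the threshold over both sexes was PSMD11, of the lid, at 0.49 (limma adjusted p = 0.0711). Its ratios were 1.14, 1.05 and 1.11 in sow-fed females and 1.30, 1.47 and 1.39 on milk formula, and 0.492, 0.589 and 0.591 in sow-fed males and 0.894, 0.785 and 0.946 on milk formula. In both sexes the groups did not overlap. PSMD11 passed with 0.1 added to the ratios (limma adjusted p = 0.045), but not with the mean of its 3 probe sets. For soy formula against sow milk over both sexes its probe set used was at 0.26, and its others at 0.15 and -0.01. Over both sexes PSMD11 was also called without male soy formula replicate 3, PSMD11 and PSME4 without male soy formula replicate 1, PSMG1 without male milk formula replicate 3 and UBE2J2 without male sow-fed replicate 2.

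Over both sexes on soy formula against sow milk, PSMD3 alone of the 64 genes was called, at 0.74 (SE 0.19, limma adjusted p = 0.0394), where 2.68% of all named genes rose. The median was 0.16 over the 64 genes and 0.26 over the cap, against 0.00 over all named genes. The call of PSMD3 was lost in 11 of 26 alternatives, with an adjusted p of up to 0.0947. It was lost without male soy formula replicate 1 or 2, male sow-fed replicate 2 or 3, female milk formula replicate 1, or any of the sow-fed or soy formula female pools. In its place or beside it, 5 genes were called without male soy formula replicate 2 (PSMD12, PSMD6, PSMD8 and UBE2M higher, UBE2E3 lower) and 2 without male milk formula replicate 3 or male sow-fed replicate 2.

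Between the formulas, 3 genes were higher on soy formula in females (PSMD3, PSMD5 and PSMA4, 4.69% of the 64, where 2.32% of all named genes rose). Over both sexes 0 of the 64 were called, against 1.27% of all named genes, and 8 reached an unadjusted limma p below 0.05, as did 14.1% of all named genes. PSMD3 was called there without male milk formula replicate 1. In males 0 were called, against 0.0% of all genes, and 1 of the 64 reached an unadjusted limma p below 0.05, as did 7.55% of all named genes. The comparisons of soy formula with sow milk and with milk formula share the soy formula pools. Without female milk formula replicate 2, or without female soy formula replicate 2 or 3, PSMD3 was the 1 gene called in females. PSMA4 lost this call in 14 of 17 alternatives, among them each that left out 1 female pool.

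In males 0 of the 64 genes were called on soy formula against sow milk, against 0.488% of all named genes, and 3 reached an unadjusted limma p below 0.05, as did 10.2% of all named genes. The 11 genes that rose in females had male differences from -0.31 (PSMC2) to 0.65 (PSMG1), with 7 of 11 above 0 and a median of 0.27. Of the 421 named genes that rose in females, 75.3% were above 0 in males, against 50.1% of all named genes. Their median SE was 0.29 in males and 0.12 in females for the 11 genes. The test of the difference between sexes called 0 of the 64 genes for soy formula against sow milk and for milk formula against sow milk, where it called 0.0148% of all named genes each, and 0 for soy formula against milk formula, where it called 0.0%. An unadjusted limma p below 0.05 was reached by 7, 2 and 5 of the 64 in these tests, and by 8.65%, 6.3% and 8.51% of all named genes. The rises in females were thus not shown to differ from the male values.

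The 11 rises rested on the spread of the female arrays. With all 18 arrays sharing one estimate of the spread, 0 of the 64 genes were called within females for soy formula against sow milk, and 9 reached an unadjusted limma p below 0.05. With the spread of the female arrays, the count was 4 without sow-fed replicate 1, 5 without soy formula replicate 2 and 6 without any 1 of the other sow-fed or soy formula female pools, and PSMD12, PSMD3, PSMD5 and PSMA4 were called in each of these 6 cases.

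Other genes of the ubiquitin pathway were read from lists of symbols. Among 19 measured deubiquitinases 4 rose and 0 fell in females on soy formula against sow milk, where 6.22% of all named genes rose and 4.95% fell. These were UCHL1 (1.39, SE 0.12, limma adjusted p = 0.0002) and UCHL3 (0.41), which free ubiquitin from small adducts, with BRCC3 and COPS5. BRCC3 (0.54) cuts a particular type of ubiquitin chain at DNA breaks, and COPS5 (0.41) removes NEDD8 from cullin ligases. UCHL1 also rose over both sexes (0.79, limma adjusted p = 0.0028), together with USP16 (0.54, limma adjusted p = 0.0389), which removes ubiquitin from histones, so that 2 of 19 rose there against 2.68% of all named genes. Of 23 ligases and cullins, ITCH rose (0.81, limma adjusted p = 0.0039) and CBLB fell (-0.57, limma adjusted p = 0.0338) in females. Both restrain T cell activation.

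Of 10 genes for ubiquitin, ubiquitin-like proteins and activating enzymes, UBA2, a subunit of the SUMO-activating enzyme, rose in females (0.38, limma adjusted p = 0.0385). Of 5 shuttle factors and regulators of proteasome synthesis, 0 were called in females and all 5 were above 0, while SQSTM1, an autophagy receptor for ubiquitinated cargo, rose over both sexes (0.46, limma adjusted p = 0.0274). In the list of 15 antigen processing and interferon genes, 14 were below 0 in females on soy formula against sow milk. Of all named genes 50.9% were above 0 there. Sow-fed female replicate 3 was the highest of its group on 11 of the 15 genes. In this comparison CALR, a chaperone of peptide loading, fell (-0.83, limma adjusted p = 0.0293). Over both sexes CANX, a related chaperone, fell on soy formula against sow milk (-0.43, limma adjusted p = 0.029). B2M, the light chain of MHC class I, rose over both sexes on milk formula over sow milk (1.37, limma adjusted p = 0.0367). On soy formula over sow milk it was at 1.05 (limma adjusted p = 0.0651) and was not called.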

How the data were processed

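Total liver RNA (8 ug per sample, per the labels' protocols) was labelled with biotin and hybridised to Affymetrix porcine arrays. The authors deposited linear expression ratios, 1 for each probe set on each array. GCOS and RMA are named in the submitters' processing notes. Not given in the sources used here are their versions, the divisor of the ratio and the genome build. Over the 18 arrays, the median ratio was 1 (within 0.002) for 48 of the 64 genes and for 21.9% of all 24123 probe sets, and 0 probe sets had a median above 1.

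Log2 of the ratios was taken. After 188 control probe sets were set aside, 23935 were tested, of which 10069 name 1 gene, 198 several and 13668 none by the platform annotation. Of the 64 genes, 63 matched the RefSeq gene table by gene ID with the same symbol, and 48 had 1 probe set. Linear models with moderated variances were fitted with limma (version 3.58.1 in R version 4.3.3), with Benjamini-Hochberg adjustment over all tested probe sets per comparison. Comparisons over both sexes are means of the within-sex differences, fitted with the tests of the difference between sexes on 18 arrays with 6 group means. Comparisons within a sex used its 9 arrays. Shares of named genes use 1 probe set per gene. The fitting code was tested on simulated data with known answers. Tables were made with pandas 2.3.3 and numpy 2.4.6 and plots with matplotlib 3.10.9, all under Python 3.11.15.

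The genes, the lists and the tests were chosen with earlier results of these data known. Named with values per pool were the immunoproteasome and constitutive catalytic genes and up to 8 called genes per comparison and direction. PSMC6, PSMA1 and PSMD8 exceeded that number, and UBE2H, UBE2B and PSMD11 stand at or near an end of a range or threshold. Alternatives were trended and robust variances, quantile normalization and log2(ratio + 0.1). Another removed the 40% of probe sets with the lowest mean log2 ratio (called the dimmest 40%). Further ones averaged a gene's probe sets, weighted the arrays by sex or used a spread shared by all 18 arrays. The last took the pool number as a block or left out each pool in turn. Pool numbers were not treated as pairs in the main fits. Residuals of same-numbered pools of one sex correlated with a median of -0.00841 (range -0.125 to 0.177), and 1 of 18 pairs exceeded 0.1. Whether same-numbered pools were paired is not given in the sources used here. With 3 pools per group these correlations cannot settle it. Precision is limited by the 3 arrays per group.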

Additional observations from a re-analysis of the deposited data

How the results depend on the processing

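Counts are of the 64 genes called. With log2(ratio + 0.1) the count was 1 for milk formula against sow milk over both sexes and 3 for soy formula against sow milk over both sexes. The latter was 2 with quantile normalization (PSMD3 higher, UBE2B lower) and with the mean of all probe sets (PSMD3 higher, UBE2E3 lower). It was also 2 without the dimmest 40% of probe sets (PSMD12 and PSMD3, both higher). With a spread shared by all 18 arrays it was 0 in females for soy formula against sow milk and against milk formula, and 1 in males for soy formula against sow milk (UBE2B, lower). With 1 pool left out (leave-one-out), the counts over both sexes ran from 0 to 2 for milk formula against sow milk, from 0 to 5 for soy formula against sow milk and from 0 to 1 for soy formula against milk formula, and in females from 4 to 12 for soy formula against sow milk and from 1 to 4 for soy formula against milk formula. In females for soy formula against sow milk, limma-trend called 8 (without PSMA1, PSMC6 and PSMD8), log2(ratio + 0.1) 13 (also PSMA3 and PSMB1), quantile normalization 10 higher (without PSMC6) and UBE2H lower, and the mean of all probe sets 11 (PSMD1 in place of UBE2D2). With the pool number as a replicate block, 8 genes were called in females for soy formula against sow milk, where PSMA1 (adjusted p = 0.0524), PSMD8 (0.0525) and UBE2D2 (0.0701) missed the threshold, and 2 for soy formula against milk formula. The other counts of 0 kept that value under the alternatives run. Signs were followed for called genes, and for the immunoproteasome and constitutive catalytic genes in the comparisons below. The signs of the other genes were not followed. Among those followed, genes that were not called changed sign with 1 pool left out. For soy formula against sow milk over both sexes these were PSMB10 (-0.1967 to 0.0749), PSMB6 (-0.0136 to 0.1873) and PSMB7 (-0.0101 to 0.0661). For soy formula against milk formula over both sexes they were PSMB6 (-0.1953 to 0.016) and PSMB7 (-0.0838 to 0.1158), and for soy formula against sow milk in females PSME2 (-0.0931 to 0.3504). The cause was not tested.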
